A study of Arabidopsis thaliana with 19 samples.

Results

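The HD-ZIP III family of Arabidopsis thaliana was followed through a root time course. Its members were taken by their locus identifiers and are PHB (AT2G34710), PHV (AT1G30490), REV (AT5G60690), CNA (AT1G52150, RefSeq symbol ATHB-15) and ATHB8 (AT4G32880, RefSeq symbol HB-8). They are 5 of the 33201 loci in the table, and all 5 were among the 18087 that averaged 1 FPKM or more and so entered the tests. The members and the gene lists below were chosen with earlier results of these data known. Their counts beside shares of all loci are therefore descriptions and not tests of the family or of a list. FPKM, fragments normalised to transcript length and to mapped reads, is a level per length, so that members can be set beside each other, apart from biases particular to a gene.

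Root tips of seedlings carrying the PET111:GFP reporter, which marks differentiated columella of the root cap, were digested to protoplasts, from which cells without GFP were collected by sorting. All 19 libraries share that genotype, long days and 22 °C, and each came from many pooled seedlings. The groups are 7 seedling ages spaced 8 h apart and named by days (D) and further hours (H). They begin at 4D, pass through 4D 8H and 4D 16H to 5D, and end, after 5D 8H and 5D 16H, at 6D. There are 3 libraries at each age except 4D 8H and 5D 16H, which have 2. The study states that harvests of all ages fell at the same hour of the day, to limit circadian effects. The study describes the sorted cells as enriched in stem cells. Markers of differentiated cells were nevertheless high in every library, with CASP1, a Casparian strip protein of the endodermis, at 281 to 890 FPKM and XCP1, a protease of maturing xylem vessels, at 51.9 to 180.4 FPKM. WOX5, which marks the quiescent centre, lay between 1.09 and 9.06 FPKM.

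HD-ZIP III proteins are transcription factors with a homeodomain, a leucine zipper and a START domain, and in plants they pattern vascular tissue, meristems and the upper side of leaves. In the root they act in the stele, where the xylem and phloem form. The movement of SHORT-ROOT (SHR) from the stele into the endodermis switches on MIR165 and MIR166 genes there, the mature miRNAs move back towards the stele and cut HD-ZIP III mRNA, and the dose that remains helps to set which xylem vessel type a cell becomes. LITTLE ZIPPER proteins bind HD-ZIP III factors and keep them from DNA.

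The sequence that ties the members together is the miRNA target site, and it is shown because it lets a reader see how alike the 5 are where they are regulated. The 2 mature miRNAs below are from the RefSeq annotation of build TAIR10.1, written 5′ to 3′ with the seed, bases 2 to 8, in capitals. All 7 MIR166 loci hold the first and both MIR165 loci hold the second.
miR166a-3p: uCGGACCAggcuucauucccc
miR165a-3p: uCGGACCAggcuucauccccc
They share the seed and differ by C17U, counted from the 5′ end, where miR165a has the first base named. The sites in the coding sequences follow, read 5′ to 3′ on the mRNA strand, with capitals for bases that form Watson-Crick pairs with miR166a-3p.
PHB: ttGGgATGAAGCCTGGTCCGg
PHV: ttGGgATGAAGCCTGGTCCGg
REV: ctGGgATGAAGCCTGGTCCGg
CNA: ctGGAATGAAGCCTGGTCCGg
ATHB8: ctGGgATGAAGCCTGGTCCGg

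Against the full complement of miR166a-3p, with positions from 1 at the 5′ end of the site and the base of the complement first, PHB and PHV carried G1T, G2T, A5G and A21G. REV and ATHB8 carried G1C, G2T, A5G and A21G, and CNA carried G1C, G2T and A21G. CNA thus paired 18 of 21 bases with miR166a and 17 with miR165a, whereas each of the other 4 members paired 17 with miR166a and 18 with miR165a. Among the mismatches to miR166a, 1 in CNA and 2 in each of the other 4 members were G:U pairs, which these counts leave out. Of 27555 coding sequences searched, 11 (0.0399%) held a stretch with 4 or fewer mismatches to that complement, the 5 members and 6 other genes. The best match in any HD-ZIP IV gene, a related family not known as a target, had 6 mismatches, in HDG3.

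Each site straddled an exon junction, with 11 bases in the earlier exon and 10 in the next. In build TAIR10.1 the PHB site is made of chr2:14642656-14642666 in exon 4 and chr2:14642530-14642539 in exon 5, on the minus strand. That of REV is chr5:24398787-24398797 in exon 4 and chr5:24398889-24398898 in exon 5, on the plus strand. The other 3 sites have the same layout on the minus strand, in exons 4 and 5 of PHV (chr1:10799435-10799445 and chr1:10799330-10799339) and CNA (chr1:19413075-19413085 and chr1:19412976-19412985), and in exons 5 and 6 of ATHB8 (chr4:15866964-15866974 and chr4:15866872-15866881). The genes span chr2:14639323-14644355 for PHB, chr1:10796124-10801093 for PHV, chr5:24396981-24402195 for REV, chr1:19409688-19414764 for CNA and chr4:15863339-15868650 for ATHB8.

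Coding sequences of PHB and PHV were 84.4% identical and those of CNA and ATHB8 74.2% identical, against 67.7% to 70.8% for the other pairs. No run of 100 bases, the read length, was shared between the transcripts of any pair of members or between a member and another gene, so reads without mismatches could be told apart. CNA has 3 annotated transcripts and the others 1. Its values carry more digits than those of the other members, as did 53.2% of loci with several annotated mRNAs and 0.955% of loci with 1.

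The spacing of low FPKM values gave an estimate of depth, in units of 1e6 reads. It lay between 10.5 and 38.8 in 18 libraries and at 1.22 in 5D 16H replicate 2, which stands apart. That library had 18854 loci above 0, against 22312 to 23919 in the others. Behind its values stood an estimated 8.20 reads for PHB, 8.39 for PHV and between 18.5 and 33.3 for the other 3 members, and outside it the lowest estimate was 77.6 reads, for PHV in 6D replicate 3. The members' tests between time points that rest on 5D 16H are given with and without it. Without it that time point is 1 library, assumed in the fits to vary like the others. The replicates are described as biological, and p-values set differences against the spread between these libraries. In limma that spread is moderated by a trend over all loci tested.

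PHB acts with PHV in the root stele as a dose-dependent factor of xylem fate. It measured 4.31, 4.42 and 2.82 FPKM at 4D, 6.42 and 5.54 FPKM at 4D 8H, then 7.22, 6.01 and 4.15 FPKM at 4D 16H. On the next day it measured 4.22, 3.98 and 4.83 FPKM at 5D and 4.57, 5.04 and 5.76 FPKM at 5D 8H. At 5D 16H it had 4.13 and 2.28 FPKM, and at 6D it had 3.80, 3.23 and 2.06 FPKM. Both libraries of 4D 8H lay above all of 4D, the 4D 16H libraries were spread from the level of 4D to above 4D 8H, and all 6D libraries lay below all 5D libraries.

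PHV, the closest relative of PHB, had nearly the same levels. It measured 4.24, 4.61 and 3.43 FPKM at 4D, 6.38 and 5.16 FPKM at 4D 8H, then 6.05, 5.47 and 4.28 FPKM at 4D 16H. It then measured 3.79, 3.79 and 3.74 FPKM at 5D and 3.94, 5.44 and 5.14 FPKM at 5D 8H. At 5D 16H it had 2.96 and 2.39 FPKM, and at 6D it had 3.02, 2.53 and 2.00 FPKM. No library from 5D 16H onward reached the lowest value seen at any earlier time point.

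REV, known for its part in vascular patterning and in the formation of meristems at the leaf base, had, with ATHB8, the highest levels. It measured 10.7, 11.5 and 7.93 FPKM at 4D, 13.9 and 12.8 FPKM at 4D 8H, then 12.0, 12.2 and 9.19 FPKM at 4D 16H. It then measured 9.45, 9.51 and 9.61 FPKM at 5D and 10.5, 10.2 and 10.5 FPKM at 5D 8H. At 5D 16H it had 8.86 and 8.16 FPKM, and at 6D it had 7.96, 6.39 and 5.18 FPKM. Its replicates at 5D and 5D 8H were the closest together, and from 4D 8H to 6D every later mean was lower than the one before it except at 5D 8H.

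CNA, which acts in vascular tissue and limits the size of the shoot meristem, was intermediate in level and varied most over time. It measured 5.44, 5.59 and 3.62 FPKM at 4D, 8.71 and 9.22 FPKM at 4D 8H, then 8.44, 8.96 and 6.28 FPKM at 4D 16H. It then measured 4.04, 4.75 and 7.05 FPKM at 5D and 7.14, 7.29 and 7.92 FPKM at 5D 8H. At 5D 16H it had 4.70 and 4.69 FPKM, and at 6D it had 3.68, 3.34 and 2.54 FPKM. At 5D replicate 3 stood well above the other 2 libraries and just below the 5D 8H values.

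ATHB8, an auxin-induced gene that marks cells entering procambial fate, had its highest values on day 4 at 16 h. It measured 8.24, 9.18 and 5.56 FPKM at 4D, 12.7 and 13.2 FPKM at 4D 8H, then 15.6, 13.8 and 7.91 FPKM at 4D 16H. It then measured 6.65, 7.09 and 9.73 FPKM at 5D and 10.5, 12.5 and 13.8 FPKM at 5D 8H. At 5D 16H it had 9.40 and 6.65 FPKM, and at 6D it had 6.74, 6.70 and 4.10 FPKM. Replicate 3 of 4D 16H lay within the range of 4D, while the other 2 held the highest ATHB8 values of the series.

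**Figure D1:**
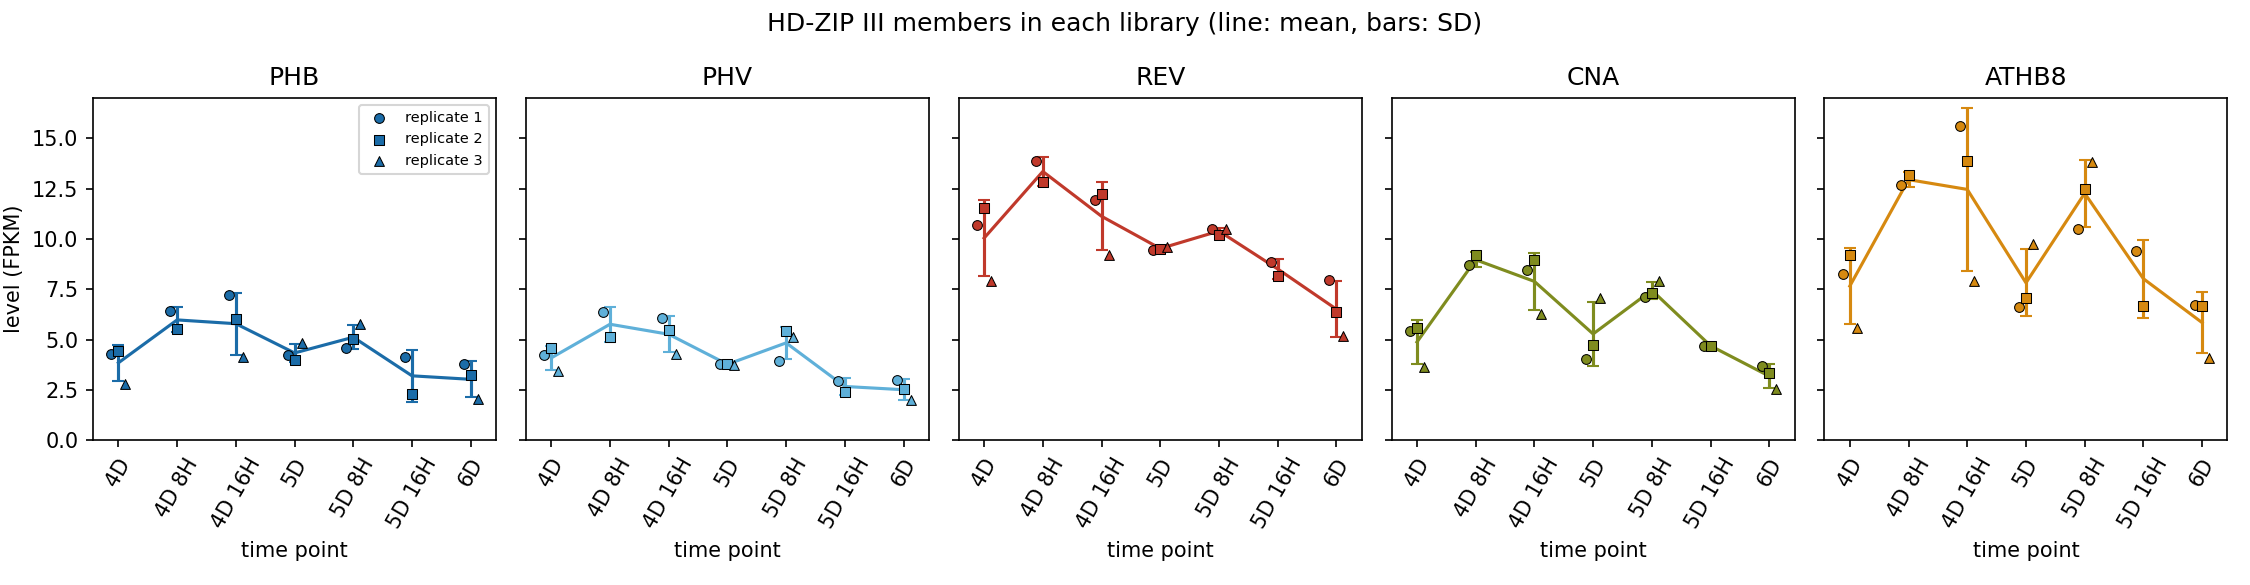
Level of each member in FPKM (vertical axis, linear, from 0) in every library at the 7 time points; symbols are replicates 1 to 3, the line joins the means and bars are SD. All 5 members were highest on average at 4D 8H, stood higher at 5D 8H than at 5D, and were lowest at 6D.

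To ask whether the family changed with age, the 7 time points were compared by the moderated F test of limma. All 5 members passed, against 29.7% of all loci tested. The adjusted p was 0.00348 for PHV, 0.00791 for REV, 0.00234 for CNA, 0.0206 for ATHB8 and 0.0445 for PHB. The call for PHB held in 10 of 26 alternative settings and in 6 of the 19 fits that left out 1 library, with the highest adjusted p, 0.0915, without 4D 8H replicate 1. The call held for PHV in all 26 settings and for REV, CNA and ATHB8 in all 27. All 5 members still passed without 5D 16H replicate 2. In such bulk samples fewer cells of a type and less RNA per cell cannot be told apart.

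Each member had its highest time-point mean at 4D 8H and its lowest at 6D, as did 6.78% of tested loci. PHB averaged 3.03 ± 0.888 FPKM at 6D (SD, n = 3) and 5.98 ± 0.622 FPKM at 4D 8H (SD, n = 2), and the higher mean was 1.97 times the lower. For PHV the averages were 2.51 ± 0.512 FPKM at 6D and 5.77 ± 0.862 FPKM at 4D 8H, a ratio of 2.29. REV averaged 6.51 ± 1.40 FPKM at 6D and 13.4 ± 0.725 FPKM at 4D 8H, a ratio of 2.05.

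CNA averaged 3.19 ± 0.585 FPKM at 6D and 8.97 ± 0.364 FPKM at 4D 8H, a ratio of 2.81, and ATHB8 5.85 ± 1.51 FPKM at 6D and 12.9 ± 0.358 FPKM at 4D 8H, a ratio of 2.21. The median of that ratio of highest to lowest mean over all tested loci was 1.54. The ratio of CNA exceeded that of 90.5% of tested loci and the ratio of PHB that of 74.9%. These extremes were picked from the same values and carry no test of their own.

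At 4D 8H against 4D, all libraries of 4D 8H lay above all of 4D for each of the 5 members, as did 28.5% of loci tested. The mean was 1.84 times as high at 4D 8H for CNA, 1.69 times for ATHB8, 1.55 times for PHB, 1.41 times for PHV and 1.33 times for REV. With limma, 0 of 5 members passed the adjusted threshold, against 0.133% of loci, and 5 of 5 had an unadjusted p under 0.05, against 14.4% of loci. CNA had the lowest adjusted p, 0.0993, with a log2 difference of 0.78 ± 0.20 (SE). It passed with sample weights, a setting whose share of all loci called is not given here. The median log2 difference was 0.54 over the members and 0.09 over all loci.

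At 4D 16H against 4D 8H, 0 members passed, as did 0% of all loci (limma), and 0 had an unadjusted p under 0.05. The log2 differences ran from -0.25 ± 0.16 (SE) for REV to -0.06 ± 0.24 for PHB. REV alone had all later libraries lower, at 9.19 to 12.2 FPKM against 12.8 and 13.9 FPKM, a pattern that 10.8% of loci shared. The sign of the PHB difference held in 22 of 26 alternatives.

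At 5D against 4D 16H all 5 members had lower means, with log2 differences of -0.58 ± 0.24 (SE) for ATHB8, -0.52 ± 0.18 for CNA, -0.38 ± 0.15 for PHV, -0.32 ± 0.21 for PHB and -0.19 ± 0.14 for REV. None passed in limma, against 10.7% of all loci, and the adjusted p was 0.0746 for CNA and between 0.117 and 0.400 for the others. An unadjusted p under 0.05 was found for 3 members, against 28% of loci. Only PHV had groups that did not overlap, as did 24% of loci in that direction. The count depended on the fit: it was 5 with sample weights, 2 without 4D 16H replicate 3 and 1 without 5D replicate 3. The 10.7% of loci belongs to the main fit. Shares of all loci in these other fits are not given here, so the counts cannot be set against it.

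At 5D 8H against 5D the means were again higher. All libraries of 5D 8H lay above all of 5D for PHV, REV, CNA and ATHB8, as they did for 17.2% of loci, and those of PHB overlapped. The mean was 1.57 times as high for ATHB8, 1.41 times for CNA, 1.28 times for PHV, 1.18 times for PHB and 1.09 times for REV. With limma 0 of 5 passed, against 0.0498% of loci, and 2, CNA and ATHB8, had an unadjusted p under 0.05, against 10.9% of loci. With sample weights 1 member, ATHB8, passed, and the share of all loci called in that setting is not given here.

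At 5D 16H against 5D 8H all 5 members were lower without overlap, as were 24.9% of loci, and 1 member passed in limma, against 6.96% of loci. PHV fell by 0.66 on the log2 scale (SE 0.17, adjusted p = 0.0331), to 2.96 and 2.39 FPKM at 5D 16H, against 3.94, 5.44 and 5.14 FPKM at 5D 8H. Without 5D 16H replicate 2, the shallow library, the difference was -0.55 with an adjusted p of 0.210. PHV also did not pass without 5D 8H replicate 2 or without 5D 8H replicate 3. Nor did it pass with sample weights or in a fit of only the time points compared (limma adjusted p between 0.0935 and 0.277 across all of these). Leaving out 5D 16H replicate 1 leaves the shallow library alone at that time point. A PHB call in that fit rests on an estimated 8.20 reads. The other 4 members had log2 differences of -0.57 ± 0.24 (SE) for PHB, -0.57 ± 0.20 for CNA, -0.56 ± 0.27 for ATHB8 and -0.26 ± 0.16 for REV. In the fit without 5D 16H replicate 2 these were -0.25 ± 0.27 for PHB, -0.57 ± 0.26 for CNA, -0.34 ± 0.33 for ATHB8 and -0.21 ± 0.20 for REV.

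At 6D against 5D 16H 0 members passed, against 12.3% of loci (limma), and 2, REV and CNA, had an unadjusted p under 0.05, against 29.7% of loci. Their groups did not overlap, with REV at 5.18 to 7.96 FPKM at 6D and 8.16 and 8.86 FPKM at 5D 16H, and CNA at 2.54 to 3.68 FPKM at 6D and 4.69 and 4.70 FPKM at 5D 16H. Lower without overlap were 17.5% of loci. PHB and PHV had log2 differences of -0.05 ± 0.24 and -0.07 ± 0.17 (SE), whose signs held in 22 and 24 of 26 alternatives. Without 5D 16H replicate 2 the count stayed at 0, and the log2 differences were -0.37 ± 0.27 for PHB, -0.18 ± 0.21 for PHV, -0.41 ± 0.20 for REV, -0.45 ± 0.26 for CNA and -0.63 ± 0.33 for ATHB8.

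At 6D against 4D 2 members passed, against 7.59% of all loci. REV fell by 0.56 on the log2 scale (SE 0.14, limma adjusted p = 0.0267), to 7.96, 6.39 and 5.18 FPKM at 6D, against 10.7, 11.5 and 7.93 FPKM at 4D. Only the highest 6D and the lowest 4D library overlapped. PHV fell by 0.54 (SE 0.15, adjusted p = 0.0431), to 3.02, 2.53 and 2.00 FPKM, against 4.24, 4.61 and 3.43 FPKM, without overlap, as 11.4% of loci did. CNA, ATHB8 and PHB had log2 differences of -0.48 ± 0.18, -0.34 ± 0.24 and -0.27 ± 0.21 (SE). These calls rested on single libraries: without any one of 4D replicate 1, 4D replicate 2, 6D replicate 2 and 6D replicate 3 the count was 0, and in a fit of only the time points compared it was 0. The call held in 23 of 28 alternatives for REV and in 13 of 27 for PHV.

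As a steady slope on age, 2 members passed, against 4.64% of loci. REV fell by 0.30 per day (SE 0.08, limma adjusted p = 0.0353) and PHV by 0.34 per day (SE 0.10, adjusted p = 0.0478). The slope was -0.31 ± 0.14 (SE) for CNA, -0.23 ± 0.11 for PHB and -0.22 ± 0.15 for ATHB8. Without 5D 16H replicate 2 only REV passed, and without any one of 4D replicate 2, 4D 8H replicate 1, 4D 8H replicate 2, 4D 16H replicate 2 and the 3 libraries of 6D none did.

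To ask whether the course after day 5 differed from that after day 4, the matching 8-h steps were compared as interactions in limma. With harvests at the same hour of the day, these are steps of seedling age and not of clock time. None of the 5 members passed in the first step (0% of loci), in the next (0.0332%) or in the last (16.2%). The largest difference was that of PHV from 8 to 16 h, -0.55 ± 0.24 (SE, adjusted p = 0.324), the only one with an unadjusted p under 0.05, against 14.4% of loci. Without 5D 16H replicate 2 it was -0.43 ± 0.27 (adjusted p = 0.596). In the first and last steps 0 members had one, against 5.7% and 33.2% of loci. Without that library the last step ran from -0.21 ± 0.25 for REV to 0.20 ± 0.26 for PHV, and PHB and ATHB8 turned negative in it (-0.05 ± 0.34 and -0.05 ± 0.41, against 0.27 ± 0.32 and 0.17 ± 0.36 with it). In the first step the interaction ran from -0.34 ± 0.32 for PHB to -0.11 ± 0.36 for ATHB8, so that a difference of that size between the days could not be told from none.

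**Figure D2:**
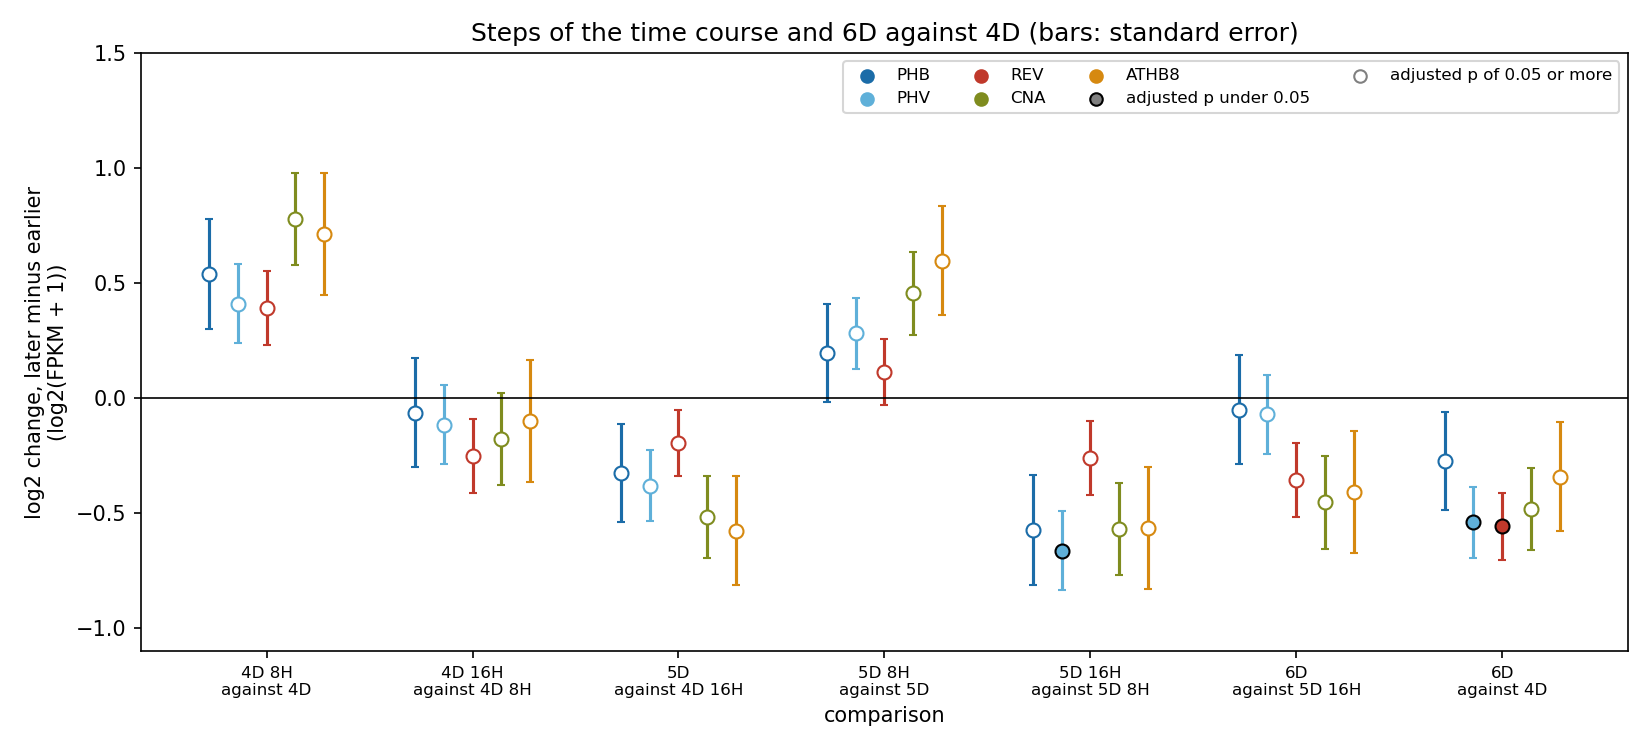
Log2 change of each member on the log2(FPKM + 1) scale (vertical axis) for the 6 steps and for 6D against 4D (horizontal axis), with bars for the standard error and filled points where the adjusted p over all loci was under 0.05. PHV passed in 5D 16H against 5D 8H, and PHV and REV in 6D against 4D.

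Summed over the 5 members, the family reached 32.9, 35.3 and 23.4 FPKM at 4D, 48.1 and 46.0 FPKM at 4D 8H, then 49.3, 46.5 and 31.8 FPKM at 4D 16H. The sum was 28.2, 29.1 and 35.0 FPKM at 5D and 36.6, 40.5 and 43.1 FPKM at 5D 8H. The 5D 16H libraries had 30.0 and 24.2 FPKM, and those of 6D had 25.2, 22.2 and 15.9 FPKM. Replicate 3 was the lowest library at 4D, 4D 16H and 6D and the highest at 5D and 5D 8H, and 6D replicate 3 was the lowest of all 19 for every member.

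REV made up 29.7 ± 3.23% of the family sum, ATHB8 27.6 ± 2.76%, CNA 17.3 ± 1.97%, PHB 13.2 ± 1.29% and PHV 12.2 ± 1.32% (SD, n = 19 libraries). Shares cancel any scaling of a whole library. Over the 7 time points 0 of 5 shares passed in a permutation F test of 100000 draws. REV came closest, with a permutation p of 0.0204 and 0.102 after adjustment over 5. Its mean share was 33.0% at 4D, 28.4% at 4D 8H, 26.5% at 4D 16H, 31.2% at 5D, 26.1% at 5D 8H, 31.6% at 5D 16H and 31.0% at 6D. ATHB8 took 24.9%, 27.6%, 28.8%, 25.3%, 30.5%, 29.4% and 27.6% at the same 7 time points, with an adjusted permutation p of 0.15. Without 5D replicate 3 or without 5D 16H replicate 1, 2 shares passed. None did without 5D 16H replicate 2, and the lowest adjusted permutation p was 0.111, for REV. In the remaining 5D 16H library REV took 29.5% and ATHB8 31.3%.

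**Figure D3:**
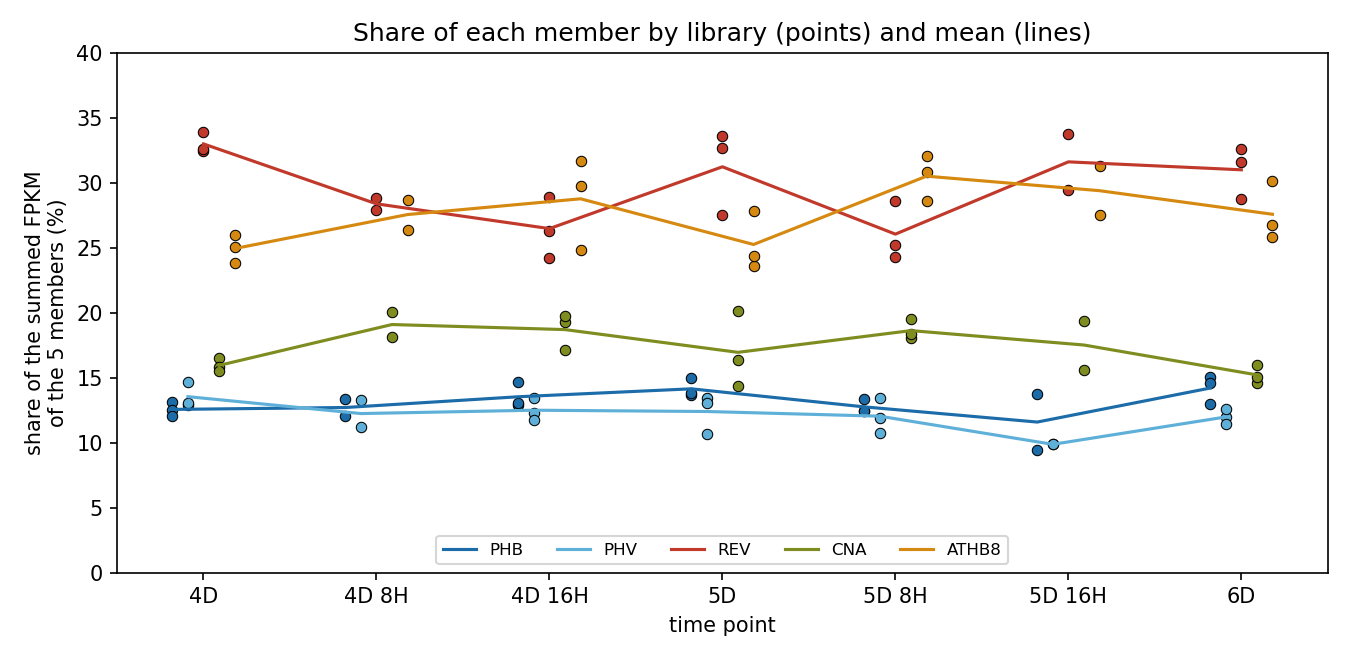
Share of each member in the summed FPKM of the family (vertical axis, percent) at the 7 time points; points are libraries and lines join the means. REV and ATHB8 lie between 23.6% and 33.9%, CNA between 14.4% and 20.2%, and PHB and PHV between 9.44% and 15.1%.

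In mean level over the 19 libraries, REV came first with 9.82 ± 2.18 FPKM (SD), before ATHB8 with 9.48 ± 3.29, CNA with 5.97 ± 2.10, PHB with 4.46 ± 1.35 and PHV with 4.12 ± 1.25. REV and ATHB8 did not differ beyond their spread, since REV was higher in 10 of 19 libraries (paired permutation test, adjusted p = 0.15). ATHB8 exceeded CNA in 19 of 19 libraries with a mean log2 ratio of 0.67 ± 0.18 (SD, adjusted permutation p = 4e-05). Its permutation p before adjustment, 1e-05, is the smallest that 100000 draws can give. CNA exceeded PHB in 17 of 19, by 0.40 ± 0.27 (adjusted permutation p = 6e-05). PHB exceeded PHV in 14 of 19, by 0.11 ± 0.19 (adjusted permutation p = 0.0262), and with a library left out that p ranged from 0.00429 to 0.0535. The order tested was taken from these same means. A bias particular to a gene would recur in every library, so these paired tests show only how steady a ratio was across libraries. The means put REV above 46.0% and PHV above 24.3% of tested loci, so the family sat in the lower part of the range.

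The members varied together across libraries. Over the 19 libraries, in which all loci share the depth and scaling of a library, the Spearman correlation between members on log2(FPKM + 1) lay between 0.819, for PHV and ATHB8, and 0.935, for CNA and ATHB8. Within time points, after removal of the time-point means, Pearson correlations lay between 0.565 for PHV and CNA and 0.925 for PHB and ATHB8, so that replicates high in one member were mostly high in another. These values are descriptions and carry no test.

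The loci whose pattern was most like that of a member, among 12902 that averaged 5 FPKM or more, were found by the same correlation. XYP2, a lipid transfer protein of the xylogen type, came first for PHV (0.975) and for PHB (0.954), and QWRF2 and AT1G69080 followed for PHB (0.953 each). For REV the nearest were GAPC2, a cytosolic glyceraldehyde phosphate dehydrogenase, at 0.975, AT2G44300 at 0.968 and AT2G45290 at 0.967. For CNA they were AT2G31110 and AT1G22230 at 0.975 each and AT5G23360 at 0.968, and for ATHB8 AT1G69080 at 0.949, AT5G23360 at 0.939 and MYB88, known in the stomatal lineage, at 0.933. For PHV the list went on with AT3G52920 at 0.967 and the kinesin ATK4 at 0.958. Between 304 and 442 of the 12902 loci reached 0.8 with a member, and the median lay between 0.139 and 0.186.

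Counts over the gene lists that follow are descriptions, since the lists were chosen with earlier results of these data known. Of the genes that act on the family, the miRNA precursors gave no usable level. Of the 9 MIR165 and MIR166 loci, 6 were listed at 0 in all 19 libraries, and MIR166B, MIR166E and MIR165A were listed above 0 in 5, 2 and 1 of them. FPKM of such short loci is unstable, and mature miRNAs are not measured by mRNA libraries. Of 7 listed proteins of the miRNA pathway AGO1 is not analysed here, and of the other 6 AGO10 and DCL1 passed over the 7 time points (limma adjusted p = 0.00205 and 0.0104). That is 2 of 6, near the 29.7% of all loci.

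AGO10, an ARGONAUTE that holds miR165 and miR166 away from their targets, measured 3.04, 4.36 and 3.04 FPKM at 4D, 5.23 and 5.13 FPKM at 4D 8H, then 4.37, 4.60 and 3.31 FPKM at 4D 16H. It then measured 3.22, 3.60 and 3.93 FPKM at 5D and 3.64, 3.91 and 4.18 FPKM at 5D 8H. The 5D 16H libraries had 3.06 and 2.31 FPKM, and those of 6D had 1.82, 1.99 and 1.38 FPKM. It was highest at 4D 8H and lowest at 6D, as the members were. At 6D against 4D AGO10 fell by 0.71 (SE 0.15, limma adjusted p = 0.00916), without overlap, as 11.4% of loci did.

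The LITTLE ZIPPER genes, which encode inhibitors and are known as targets of the factors they inhibit, did not share 1 pattern. ZPR1 passed over the 7 time points (limma adjusted p = 0.0447) and ZPR4 as well (0.0287), ZPR3 did not (0.430), and ZPR2 was under the filter. Of all loci tested, 29.7% passed, so calls in so short a list say little about the inhibitors. Neither ZPR1 (0.0922) nor ZPR4 (0.0580) passed without 5D 16H replicate 2. ZPR1 measured 16.7, 15.1 and 16.1 FPKM at 4D, 17.9 and 18.8 FPKM at 4D 8H, then 10.6, 17.6 and 17.9 FPKM at 4D 16H. It measured 16.4, 12.8 and 13.4 FPKM at 5D and 15.7, 15.8 and 14.9 FPKM at 5D 8H. The 5D 16H libraries had 12.0 and 5.94 FPKM, and those of 6D had 12.4, 12.2 and 7.78 FPKM. Its lowest library was the shallow one. The mean of ZPR4 was highest at 5D, with 12.9 FPKM, and lowest at 5D 16H, with 4.26 FPKM.

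Of the SHORT-ROOT module, SHR, SCR and JKD passed over the 7 time points and MGP did not (limma adjusted p = 0.00740, 0.0154, 0.0147 and 0.0608), so that 3 of 4 passed against 29.7% of loci. MGP passed as well without 5D 16H replicate 2 (0.0446). SHR is the transcription factor that starts the miRNA signal. It measured 4.46, 4.04 and 3.46 FPKM at 4D, 7.38 and 6.53 FPKM at 4D 8H, then 8.20, 6.54 and 4.72 FPKM at 4D 16H. It measured 4.73, 4.64 and 4.91 FPKM at 5D and 6.34, 4.41 and 5.83 FPKM at 5D 8H. The 5D 16H libraries had 3.50 and 3.68 FPKM, and those of 6D had 2.72, 3.64 and 1.54 FPKM. The highest and lowest means of SHR lay at 4D 8H and 6D, which held for 1 of the 4 genes of the module. SCR was highest at 4D 16H, JKD at 5D, and MGP was lowest at 5D.

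Of 5 genes on the auxin input, 4 passed over the 7 time points, against 29.7% of loci. T5L1 and TMO5 encode bHLH factors that act as dimers with LHW in the young stele. T5L1 measured 17.7, 24.4 and 15.2 FPKM at 4D, 28.1 and 29.5 FPKM at 4D 8H, then 26.2, 27.5 and 17.2 FPKM at 4D 16H. It measured 15.2, 14.4 and 19.3 FPKM at 5D and 16.8, 19.5 and 21.8 FPKM at 5D 8H. The 5D 16H libraries had 15.1 and 9.36 FPKM, and those of 6D had 13.3, 10.2 and 8.00 FPKM. T5L1 passed (limma adjusted p = 0.00545). LHW, TMO5 and BDL, the repressor of MP, also passed (0.00482, 0.0158 and 0.0187), and all 4 were highest at 4D 8H and lowest at 6D. MP, the auxin response factor that switches on TMO5 and ATHB8, did not pass (0.299) and had its highest mean, 23.1 FPKM, at 4D.

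Of 12 genes listed as reported targets of HD-ZIP III factors 10 were tested, 6 passed over the 7 time points, against 29.7% of loci, and 2 of the 10 were highest at 4D 8H and lowest at 6D. At 6D against 4D 4 of the 10 passed, against 7.59% of loci. LOG4 fell by 0.80, YUC5 by 0.84 and HB4 by 0.85 (limma adjusted p = 0.00684, 0.0181 and 0.0332), and IAA30, an AUX/IAA repressor of auxin response, rose by 1.32 ± 0.28 (SE, adjusted p = 0.00976). IAA30 measured 31.6, 44.5 and 45.7 FPKM at 6D, against 9.10, 15.6 and 25.3 FPKM at 4D. The median of the 10 was -0.28, against 0.02 for all loci.

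PEAR and related DOF factors act in the early phloem, and HD-ZIP III factors are known to restrict their action. Of 4 tested, 2 passed over the 7 time points, against 29.7% of loci, and 2 fell at 6D against 4D, against 7.59% of loci called. TMO6 fell by 0.86 and OBP2 by 0.98 (limma adjusted p = 0.00684 and 0.00395). Of the 4, 3 were highest at 4D 8H and lowest at 6D.

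KANADI factors are known as opponents of the family in leaves, and HD-ZIP IV factors act in the epidermis. KAN1 rose by 0.61 ± 0.16 (SE) at 6D against 4D (limma adjusted p = 0.0314), 1 of the 3 KANADI genes tested, against 7.59% of loci called. GL2, which represses root hair fate, rose by 0.86 ± 0.16 (adjusted p = 0.00412), 1 of 6 HD-ZIP IV genes tested, and all 6 had positive differences, with a median of 0.46. All 5 HD-ZIP III members had negative ones, with a median of -0.48.

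Vascular markers are given beside the family, since the sorted cells are a mixture. Phloem markers (10 genes, 8 tested) had a summed level of 15.7 to 25.1 FPKM at 6D and 41.3 to 43.5 FPKM at 4D 8H, and 6 of the 8 were highest at 4D 8H and lowest at 6D. Xylem markers (10 genes, 9 tested) summed to 144 to 268 FPKM at 6D and 361 to 453 FPKM at 4D 8H, and 3 of 9 had both extremes there. Procambium markers (7 genes, 3 tested) summed to 30.0 to 40.8 FPKM at 6D and 47.3 to 50.7 FPKM at 4D 8H, and none of the 3 had both. WOX4 and AHP6 were listed at 0 in 4 and 10 libraries. At 4D the sums were 24.3 to 32.9 FPKM for phloem, 298 to 393 FPKM for xylem and 30.1 to 40.8 FPKM for procambium.

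At 6D against 4D, against 7.59% of loci called, 1 of 9 xylem markers, XCP1, fell, by 0.93 (limma adjusted p = 0.0465), 1 of 8 phloem markers, OPS, by 0.54 (0.0467), and 0 of 3 procambium markers passed (limma, with 0 at an unadjusted p under 0.05). The median log2 differences were -0.66, -0.40 and -0.07, beside -0.48 for the members and 0.02 for all loci. Across libraries the mean log2 level of the phloem, procambium and xylem lists followed that of the family with Spearman correlations of 0.868, 0.825 and 0.782 (19 libraries, a description without a test). Lists not chosen as vascular markers reached similar values, with 0.895 for the auxin inputs, 0.867 for the SHORT-ROOT module and 0.784 for the miRNA pathway proteins. The auxin inputs and the module also hold genes of the stele, T5L1, TMO5 and LHW in the former and SHR in the latter. The reported targets had 0.670, the PEAR and DOF list 0.567, the root cap 0.467, the LITTLE ZIPPER genes 0.340, the endodermis 0.326, the KANADI genes 0.267 and the epidermis 0.228. The HD-ZIP IV genes had -0.381 and the quiescent centre pair -0.632. At 5D 8H against 5D and at 4D 8H against 4D the vascular sums were also higher on average. The part of cell numbers in the members' changes was not tested.

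**Figure D4:**
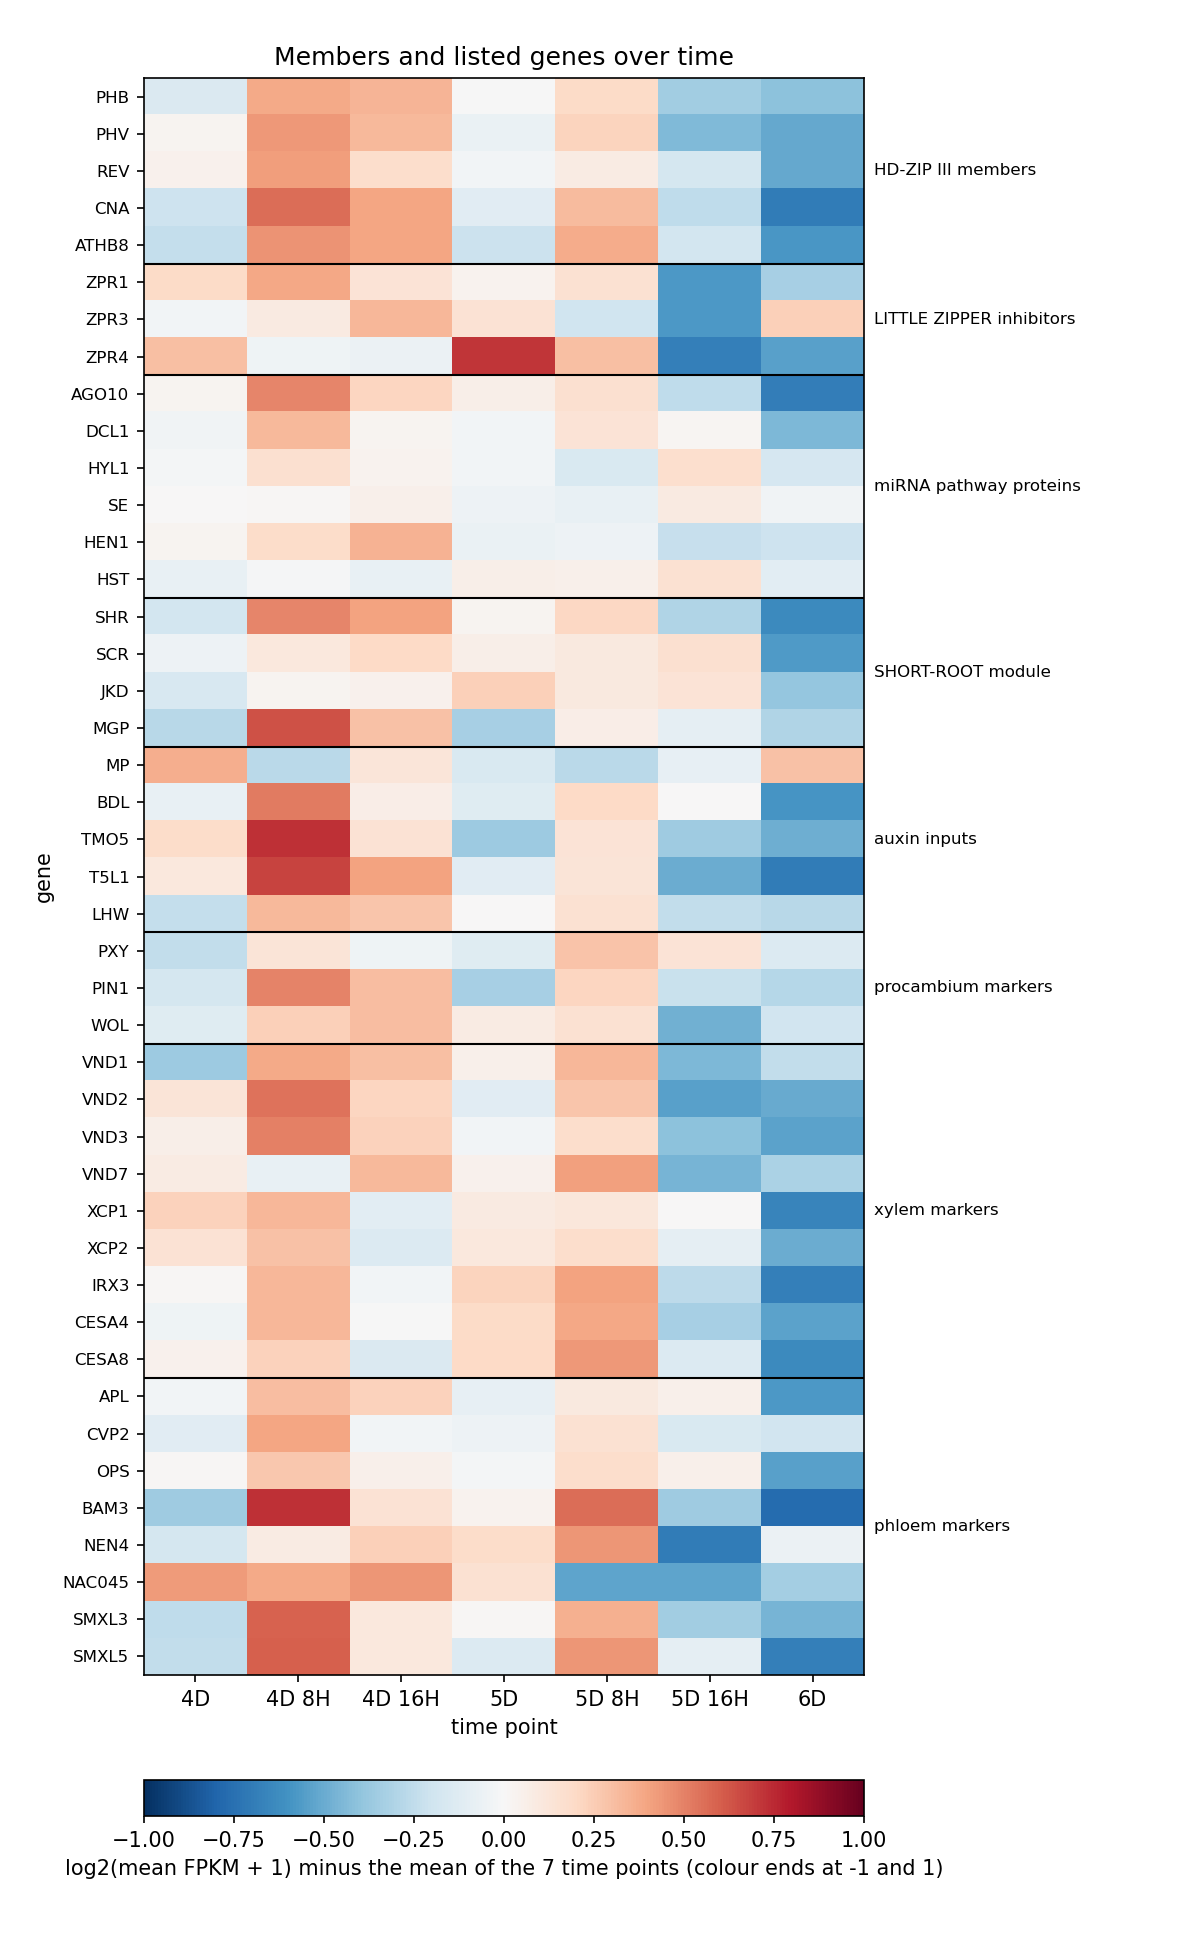
Mean level at each of the 7 time points (columns) of the members and of listed genes that passed the filter (rows, by list), as log2(mean FPKM + 1) minus the mean over the time points, red for higher and blue for lower. The 5 members are reddest at 4D 8H and bluest at 6D, as are AGO10, SHR, T5L1 and 6 of the 8 phloem markers. MP, which did not pass over the 7 time points, is about equally low at 4D 8H and 5D 8H.

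**Figure D5:**
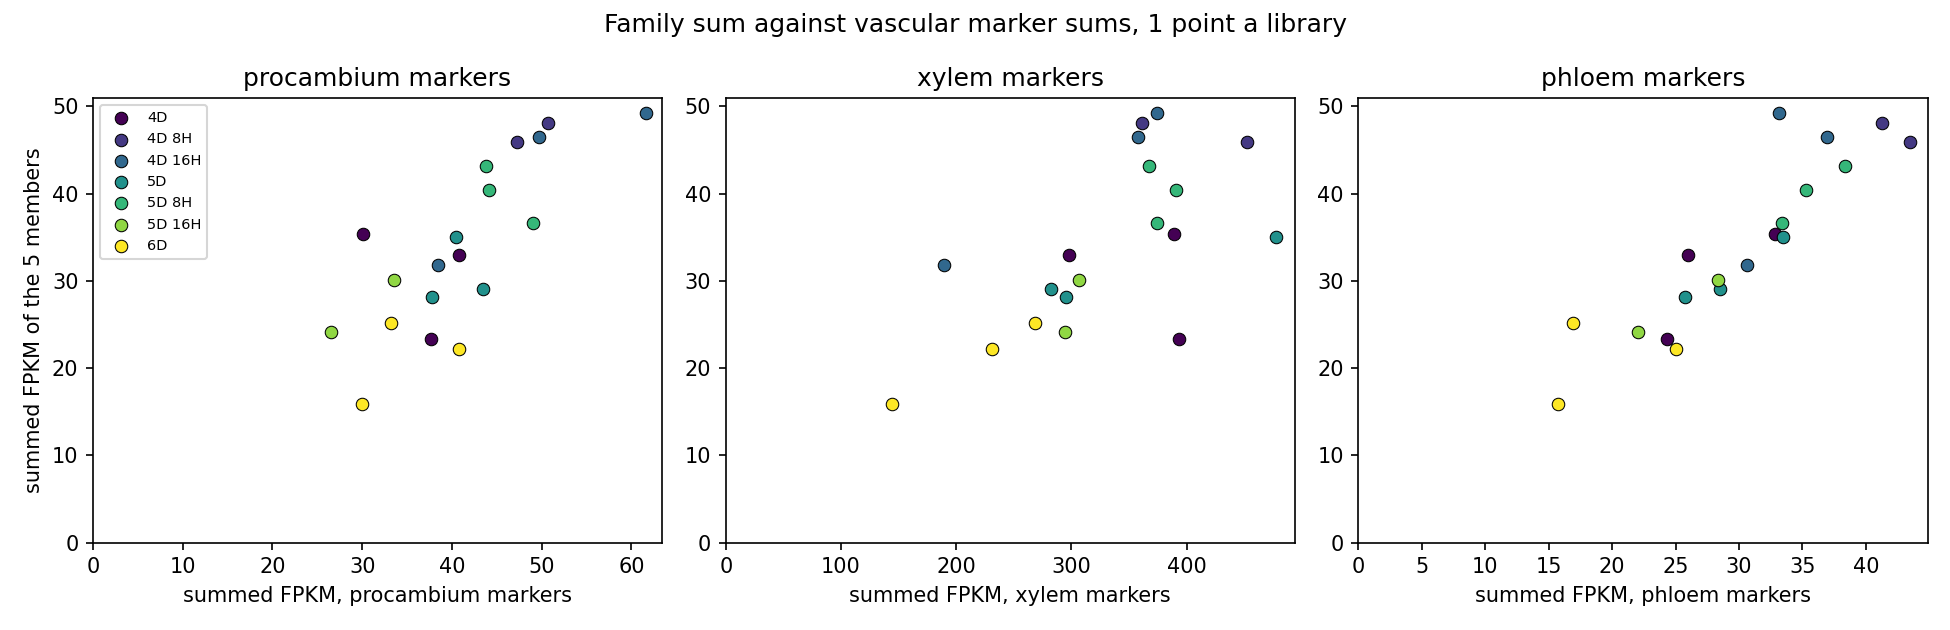
Summed FPKM of the 5 members (vertical axis) against the summed FPKM of procambium, xylem and phloem markers (horizontal axes), 1 point for each of the 19 libraries, coloured by time point. The family sum runs from 15.9 to 49.3 FPKM and is 48.1 and 46.0 FPKM in the 4D 8H libraries, where the phloem sum is highest.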

How the data were processed

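The authors sorted GFP-negative protoplasts of PET111:GFP root tips, sequenced mRNA, and deposited 1 table of FPKM per locus and library. The submitters' notes name TopHat, Cufflinks and build TAIR10, and the methods of the study name Bowtie, the Tuxedo tools and Rsubread. Versions are not given in the sources used here. FPKM is not a count, so no count model was fitted: log2(FPKM + 1) of 18087 of the 33201 loci, those averaging 1 FPKM or more, was fitted with limma 3.58.1 (R 4.3.3), with a variance trend and Benjamini-Hochberg adjustment over those loci at 0.05. Of the loci, 6516 were at 0 in every library.

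Levels, shares and figures were computed in Python 3.11.15. The fit was also run on simulated data with independent noise for each locus and library, whereas the members varied together. Its outcome is not given here and is not used as support. Low values were within 0.05 of whole reads in 41.1% to 47.3% of cases in 18 libraries and 27.9% in 5D 16H replicate 2, too few for recovering counts. Depth was estimated from the tallest step between low values, a choice made after a first rule gave higher values and with earlier estimates known, so it serves as a description only. No column lacked a sample (0 unmapped).

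The members and the gene lists were chosen with earlier results of these data known. The genes named are the members, the 3 loci most like each, and listed genes of the pathway and of cell types. Alternatives were another pseudocount (0.1), no filter or a filter of 5 FPKM, upper quartile and quantile scaling, a replicate block, no trend, sample weights, only the time points compared, and leaving out each library.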

Additional observations from a re-analysis of the deposited data

How the results depend on the processing

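Over the 7 time points 3 members passed, of 3 tested, with a filter of 5 FPKM, and 4 to 5 with a library left out. That filter removed PHB and PHV from every test, so its counts cannot show whether a call for PHV held. With sample weights the count was 1 at 4D 8H against 4D, 5 at 5D against 4D 16H, 1 at 5D 8H against 5D, 0 at 5D 16H against 5D 8H and 1 for the slope on age. At 5D 16H against 5D 8H it was 0 with the filter of 5 FPKM and 0 with only the time points compared. At 6D against 4D it was 1 without a filter, 1 with the filter of 5 FPKM and 0 with only the time points compared, and for the slope 0 without a filter and 1 with that of 5 FPKM. With a library left out the count ranged from 0 to 2 at 5D against 4D 16H, 0 to 2 at 5D 16H against 5D 8H, 0 to 3 at 6D against 4D, 0 to 3 for the slope, 0 to 2 for the shares and 2 to 3 of 4 for the order of levels. No called value changed sign under these alternatives. Shares of all loci called in these other fits are not given here, so the counts show only how the members' calls moved.

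Replicate numbers did not pair the libraries: deviations of same-numbered libraries had a mean correlation of 0.0097, and 8 of 19 libraries were closest to their own number. With the replicate block 1 member passed for the slope in place of 2, and no other count of members changed. Depth limits PHB and PHV in 5D 16H replicate 2, which rest on about 8 reads each, and time points with 2 libraries give wide errors.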

Other observations

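At 6D against 4D, where 7.59% of all loci passed, lists of other cell types gave the following. Of 7 endodermis markers 1, MYB36, fell, and all 7 had negative log2 differences with a median of -0.50, beside -0.48 for the members. Of 6 epidermis and root hair markers 1, GL2, rose, with a median of 0.31, and of 4 root cap markers SMB rose and BRN1 fell. Of the quiescent centre pair AGL42 rose by 2.27 (limma adjusted p = 0.000112), while WOX5 averaged 5.80 FPKM at 6D and 6.16 FPKM at 4D. The median over all loci was 0.02.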
